A study of Mus musculus with 14 samples.

Results

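The genes described here carry the signal from adrenergic receptors through cyclic AMP (cAMP) in fat cells, and they were followed in subcutaneous white adipose tissue of running and resting mice. They were chosen by name from the platform's gene symbols, as 9 listed genes, with the probe set of the highest mean signal standing for each gene. Of the 9, the 3 receptors Adrb1, Adrb3 and Adra2a are not analysed here, because the annotation table used pairs no probe set with their symbols. The other 6 genes had 15 probe sets among the 45101 on the array, and all 6 were among the 12944 genes tested. The study measured RNA on 14 Affymetrix arrays. In the exercised group (n = 7) male C57BL/6 mice, aged 12 weeks, had a running wheel in the cage for 11 days, and in the sedentary group (n = 7) male mice of the same strain and age had none. The labels name no transgene, drug or diet. Nothing in them states that the 7 arrays of a group are 7 animals, and the p-values are therefore of the spread among arrays, part or all of which may be technical.

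In adipocytes, noradrenaline released by sympathetic nerves binds beta-adrenergic receptors, which act through a stimulatory G protein to switch on adenylyl cyclase, while alpha-2 receptors act through an inhibitory G protein to hold it back. The cAMP made by the cyclase releases the catalytic subunits of protein kinase A (PKA) from their regulatory subunits, and the kinase then phosphorylates lipid droplet proteins and lipases as well as transcription factors of the CREB family. Phosphodiesterases end the signal by breaking cAMP down. In brown and beige fat the same pathway turns on heat production, and in white fat it releases fatty acids.

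Of the 6 genes, 2 rose in exercised tissue by limma after Benjamini-Hochberg adjustment over all genes, and 0 fell. They were Pde4d, a phosphodiesterase (log2 difference 0.81, SE 0.22, adjusted p = 0.0421), and Adcy3, an adenylyl cyclase (0.63, SE 0.15, adjusted p = 0.0272). Over all genes tested, 4.0% were called higher and 1.53% lower. Pde3b, Prkar2b and Prkaca had positive differences with unadjusted p-values under 0.05 that did not pass the adjustment, which makes 5 of 6 genes higher at that level and 0 lower, beside 11.3% and 10.5% of all genes. Prkar1a had a difference of -0.02. The median difference of the 6 genes was 0.49, beside -0.03 over all genes tested, where 45.0% of differences were positive. The 6 genes were chosen with earlier results of these data known, so the shares over all genes do not test an excess among them. The calls also depended on which arrays were included, and not on sedentary replicates 5 and 7 alone. Adcy3 passed without sedentary replicate 5 or 7 singly (adjusted p = 0.042 and 0.0415). Pde4d passed without sedentary replicate 7 (adjusted p = 0.0478) but not without sedentary replicate 5 (0.0632). Without both arrays 2 genes were again called, but they were Prkar2b (0.36, adjusted p = 0.0101) and Pde3b (0.46, adjusted p = 0.0156), while Adcy3 (0.54, adjusted p = 0.0726) and Pde4d (0.60, adjusted p = 0.0862) did not pass. With array weights Adcy3, Prkar2b and Pde3b passed (adjusted p = 0.0319, 0.0308 and 0.0242) and Pde4d did not (0.0649). In 0 of the 6 were the 7 exercised values all above the 7 sedentary ones, and in 0 were they all below, beside 1.95% and 0.734% of all genes tested. All differences are of log2(signal + 46.7), exercised minus sedentary, a scale that understates changes of weak signals.

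The values of both groups on every array are plotted next, and are then taken in the order of the signal, from the cyclase through the kinase to the phosphodiesterases.

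**Figure D1:**
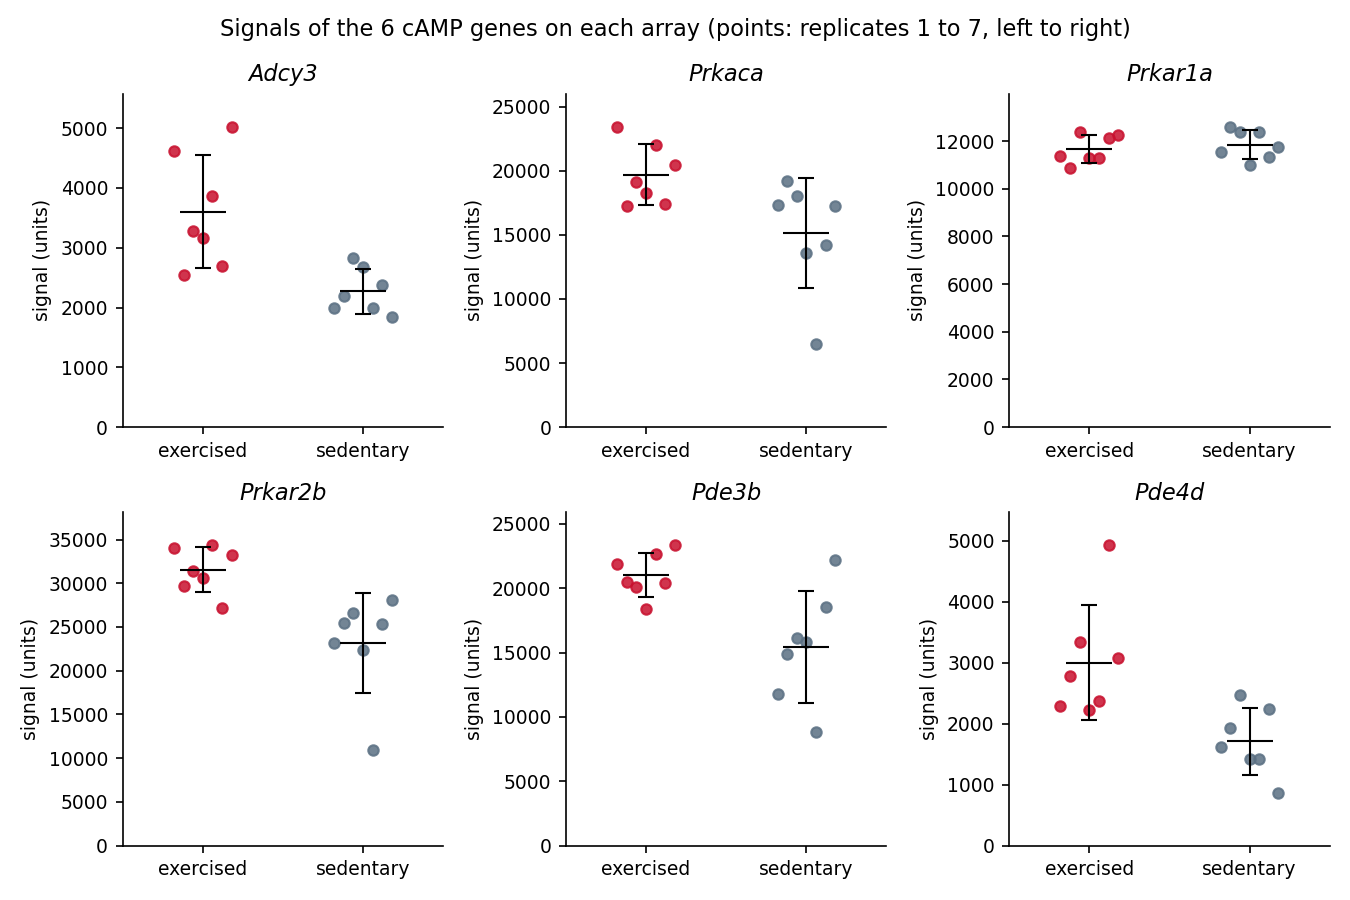
Signal of the 6 genes on each array (points, with the 7 replicates in order from left to right), with exercised arrays left and sedentary arrays right in each panel; horizontal lines are means and bars are SD, and each vertical axis starts at 0 and is in signal units. The 7 exercised values of Adcy3, Prkaca, Prkar2b, Pde3b and Pde4d all lie above the sedentary median, the 2 groups of Prkar1a lie at the same height, and the lowest sedentary points of Prkaca, Prkar2b and Pde3b come from sedentary replicate 5.

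Adcy3 encodes a membrane-bound adenylyl cyclase that makes cAMP when the stimulatory G protein binds it. Its signals ran from 2539 to 5022 on exercised arrays, with a median of 3280, and from 1843 to 2823 on sedentary arrays, with a median of 2192. The highest were exercised replicates 7 and 1, and 5 of the 7 exercised arrays lay above every sedentary one, while exercised replicates 2 and 6 overlapped with sedentary replicates 3 and 4. The means were 3600 ± 945 in exercised and 2272 ± 371 in sedentary tissue (SD, n = 7 each), a fold of 1.55 with a 95% interval of 1.23 to 1.94. The call was lost when exercised replicate 1, 5 or 7 or sedentary replicate 1 was left out (adjusted p = 0.0542 to 0.0591, differences of 0.54 to 0.60), and with the markers of skeletal muscle or of mature adipocytes as a covariate (0.68 and 0.56, adjusted p = 0.0844 and 0.085).

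Adcy3 had 3 further probe sets. The one with a mean signal of 1604 differed by 0.36 (SE 0.16, adjusted p = 0.212 when all probe sets past the filter were tested). The one with a mean of 692 had 1083 ± 661 units in exercised and 302 ± 146 in sedentary tissue and differed by 1.51 (SE 0.45, adjusted p = 0.0679). The weakest, with a mean of 380, did not pass the filter on low signal and differed by 0.27 (SE 0.29). All 4 probe sets of this gene thus had positive differences, but of unequal size.

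Prkaca encodes the catalytic alpha subunit, the part of PKA that phosphorylates its targets. Its signals ran from 17265 to 23422 on exercised arrays (median 19087) and from 6505 to 19196 on sedentary arrays (median 17250). The groups overlapped, with 3 of the 7 exercised arrays above all sedentary ones. The difference was 0.44 (SE 0.19, adjusted p = 0.198), and without sedentary replicate 5, the array with 6505 units, it was 0.25 (SE 0.10, adjusted p = 0.161). A second probe set of Prkaca, with a mean of 4847, differed by 0.64 (SE 0.21, adjusted p = 0.094 among all probe sets).

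The regulatory subunits hold the kinase inactive until cAMP binds them. Prkar1a encodes RI-alpha, which is made in most tissues, and Prkar2b encodes RII-beta, the regulatory subunit typical of fat and brain. Prkar1a had 11657 ± 591 units in exercised and 11850 ± 618 in sedentary tissue (SD, n = 7 each). The lowest, median and highest values were 10852, 11379 and 12391 on exercised arrays and 10993, 11733 and 12593 on sedentary arrays, so that the groups overlapped over nearly their whole range. Its difference of -0.02 had a 95% interval of -0.14 to 0.09 (adjusted p = 0.834), and the sign turned to 0.01 with arrays centred on their medians and to 0.03 with the mean of all probe sets of the gene. Its other 2 probe sets differed by 0.10 (SE 0.09) and 0.03 (SE 0.13).

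Prkar2b ran from 27198 to 34331 on exercised arrays (median 31453) and from 10886 to 28048 on sedentary arrays (median 25284). Of the 7 exercised arrays, 6 lay above every sedentary one, and exercised replicate 6 lay below sedentary replicate 7. The difference was 0.50 (SE 0.17), a fold of 1.41 with a 95% interval of 1.1 to 1.8, and did not pass the adjustment (adjusted p = 0.0978). Without sedentary replicate 5, whose 10886 units were the lowest of all 14, the difference was smaller and passed (0.32, SE 0.07, adjusted p = 0.0147). The other 2 probe sets of Prkar2b differed by 0.62 (SE 0.18, adjusted p = 0.0575) and 0.61 (SE 0.23, adjusted p = 0.142).

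Pde3b encodes the phosphodiesterase of adipocytes that insulin activates to restrain lipolysis. Its signals ran from 18377 to 23324 on exercised arrays (median 20442) and from 8863 to 22209 on sedentary arrays (median 15833). The exercised arrays lay close together, and of the sedentary arrays replicates 6 and 7 (18541 and 22209) reached into their range. The difference was 0.49 (SE 0.16, adjusted p = 0.0806), and without sedentary replicate 7 it passed (0.59, SE 0.14, adjusted p = 0.0238). This gene had a single probe set.

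Pde4d encodes a cAMP-specific phosphodiesterase with many isoforms. Its signals ran from 2230 to 4927 on exercised arrays (median 2783) and from 871 to 2473 on sedentary arrays (median 1619). The highest was exercised replicate 6 and the lowest sedentary replicate 7, and 4 of the 7 exercised arrays lay above every sedentary one. The means were 3004 ± 947 in exercised and 1713 ± 548 in sedentary tissue (SD, n = 7 each), a fold of 1.75 with a 95% interval of 1.27 to 2.42. The call passed in 4 of the 14 fits that left out a single array, those without exercised replicate 4 or sedentary replicate 3, 6 or 7. In the other 10, which left out exercised replicate 1, 2, 3, 5, 6 or 7 or sedentary replicate 1, 2, 4 or 5, the adjusted p was 0.0527 to 0.0842 and the difference 0.68 to 0.87. A second probe set of Pde4d, with a mean of 106 units, did not pass the filter and differed by -0.22 (SE 0.17).

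**Figure D2:**
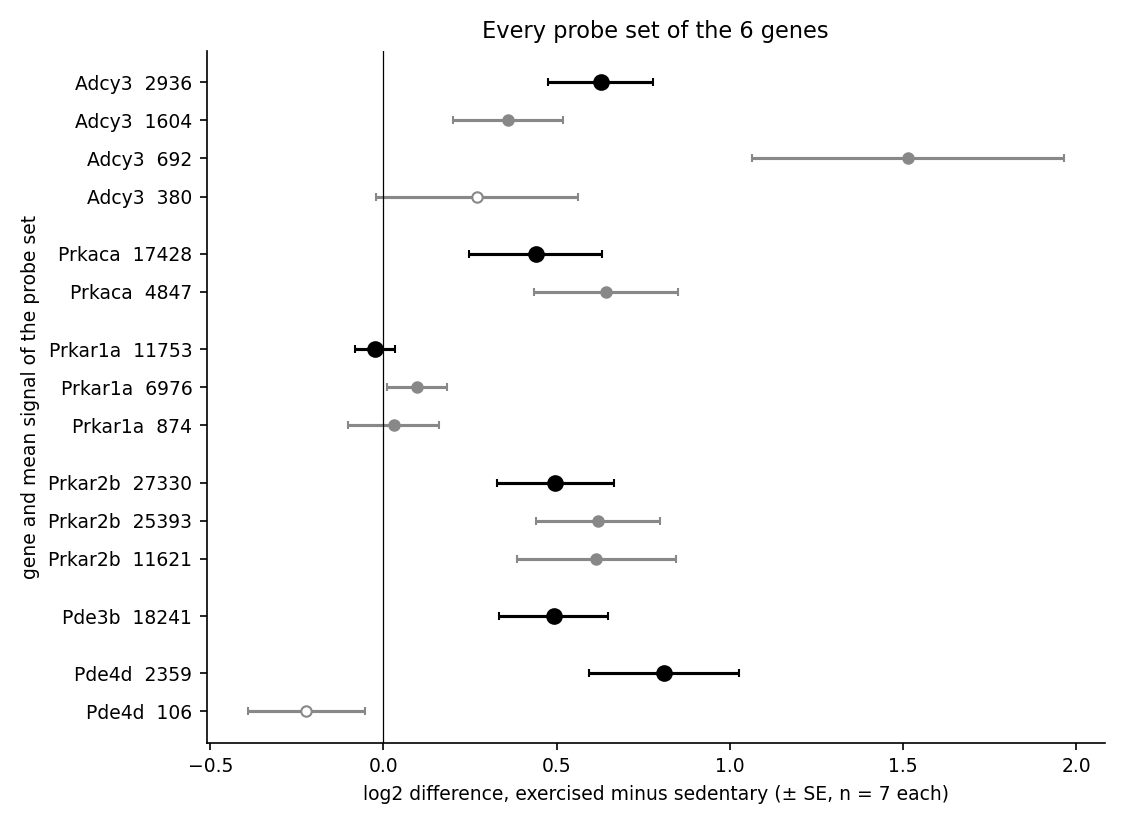
Log2 difference, exercised minus sedentary (horizontal axis), for each of the 15 probe sets of the 6 genes, with bars of 1 SE (n = 7 each); labels give the gene and the probe set's mean signal, black marks the probe set that stands for the gene, grey the others, and open circles those that did not pass the filter on low signal. The probe sets of Prkaca, Prkar2b and Adcy3 lie right of 0, those of Prkar1a lie at -0.02 to 0.10, and the 2 of Pde4d lie on opposite sides.

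Of the 9 probe sets that do not stand for a gene, 8 had positive differences, and 0 of the 7 past the filter passed the threshold by limma (3.20% of the 22647 probe sets tested singly were called higher). Their unadjusted p-values were under 0.05 for 5 of these 7, all further probe sets of Adcy3, Prkaca and Prkar2b on the same arrays. These 5 are not separate support. The share of all probe sets at this level was not computed, and over genes 11.3% were higher. Adcy3 and Pde4d, each read by its strongest probe set, passed in that fit too (adjusted p = 0.0292 and 0.0446).

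The tissue's defining markers were present. Adipoq, which encodes adiponectin, had 59745 ± 5241 units in exercised and 57627 ± 7115 units in sedentary tissue (SD, n = 7 each). In bulk tissue, fewer cells of a type and less RNA per cell cannot be told apart. All 13 mature adipocyte markers tested had positive differences, with a median of 0.19, and 1 of them rose (Adipor2, a receptor for adiponectin, 0.52, SE 0.11, adjusted p = 0.0132). The summed signal of the 13 ran from 528920 to 647819 in exercised and from 420482 to 592588 in sedentary tissue. Sedentary replicate 5 had the lowest mean log2 level of these markers, 14.10, against 14.57 to 15.06 on the other 6 sedentary arrays. It was also lowest for Prkaca, Prkar2b and Pde3b by the probe sets that stand for them, but not by the second probe set of Prkaca. With the mean of these markers as a covariate, the differences of Prkaca, Prkar2b and Pde3b were 0.10 (SE 0.12), 0.18 (SE 0.09) and 0.23 (SE 0.11). Those of Adcy3 and Pde4d were 0.56 (SE 0.17) and 0.83 (SE 0.25), and neither passed with this covariate (adjusted p = 0.085 and 0.0806).

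Markers of skeletal muscle had higher group means in exercised tissue but varied widely among the arrays of each group. Their mean log2 levels ran from 8.77 to 15.18 on exercised arrays and from 8.47 to 13.10 on sedentary arrays. All 20 were tested, all 20 had positive differences (median 2.75), and 0 passed by limma, with 15 higher at an unadjusted p under 0.05. Their summed signal ran from 13479 to 863425 in exercised and from 10735 to 330983 in sedentary tissue. Pde4d was highest in its group on exercised replicate 6 and on sedentary replicate 3, which also had the highest mean muscle marker levels of their groups (15.18 and 13.10). With the muscle markers as a covariate its difference was 0.46 (SE 0.20, adjusted p = 0.306). Exercised replicates 4 and 1, whose mean muscle marker levels were 8.77 and 9.09, had 2230 and 2288 units of Pde4d, the lowest of the exercised arrays but above 5 and 6 of the 7 sedentary ones. The same covariate left differences of 0.68 (SE 0.18) for Adcy3, 0.44 (SE 0.23) for Prkaca, 0.50 (SE 0.20) for Prkar2b and 0.51 (SE 0.19) for Pde3b. None of these passed by limma (adjusted p = 0.0844, 0.423, 0.277 and 0.229).

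Of 8 markers of brown and beige adipocytes, which include Ucp1, Ppargc1a and Dio2, 5 rose and 0 fell, and their summed signal ran from 52148 to 158466 in exercised and from 4941 to 52037 in sedentary tissue. Cidea, Prdm16 and Dio2 did not pass (differences of 2.21, 0.39 and 0.01). Ucp1, Ppargc1a and Dio2 are also among the genes induced by cAMP given below. Exercised replicates 7, 5 and 1 had the highest mean brown marker levels (13.08, 12.96 and 12.91). They also had the highest signals of the probe set that stands for Adcy3 (5022, 3863 and 4625). The Adcy3 probe set with a mean of 692 was highest on the same arrays (1698, 1494 and 1912). The one with a mean of 1604 was highest on exercised replicates 3, 5 and 4 (2427, 2144 and 2024). In that probe set exercised replicate 1 was the lowest exercised array (1206). The weakest was highest on exercised replicates 1, 7 and 2 (679, 635 and 516). Sedentary replicate 7 had the lowest brown marker level (9.0) and the lowest Adcy3 and Pde4d signals of the 14 arrays, by the probe sets that stand for them. This array was unusual in other markers too. Its levels of epithelium markers (10.71) and of the 1 red blood cell marker tested (12.90) were the highest of the 14 arrays. Its lymphocyte marker level (8.78) was the lowest of the sedentary arrays. The other sedentary arrays did not all follow the order of brown marker and Adcy3 levels. Replicate 1 had the highest sedentary brown marker level (11.71) but 1999.5 units of Adcy3, and replicate 3 had the highest sedentary Adcy3 signal (2823) at a level of 10.99. All 10 macrophage markers had negative differences (median -0.25), and 1, Tyrobp, fell, with summed signals of 87916 to 114507 in exercised and 94467 to 138321 in sedentary tissue. All 8 lymphocyte markers tested also had negative differences (median -0.61), and 0 passed. Their summed signals ran from 3344 to 48081 in exercised and from 3923 to 90538 in sedentary tissue. What part these other cell types had in the differences of the 6 genes was not tested beyond the covariates given.

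**Figure D3:**
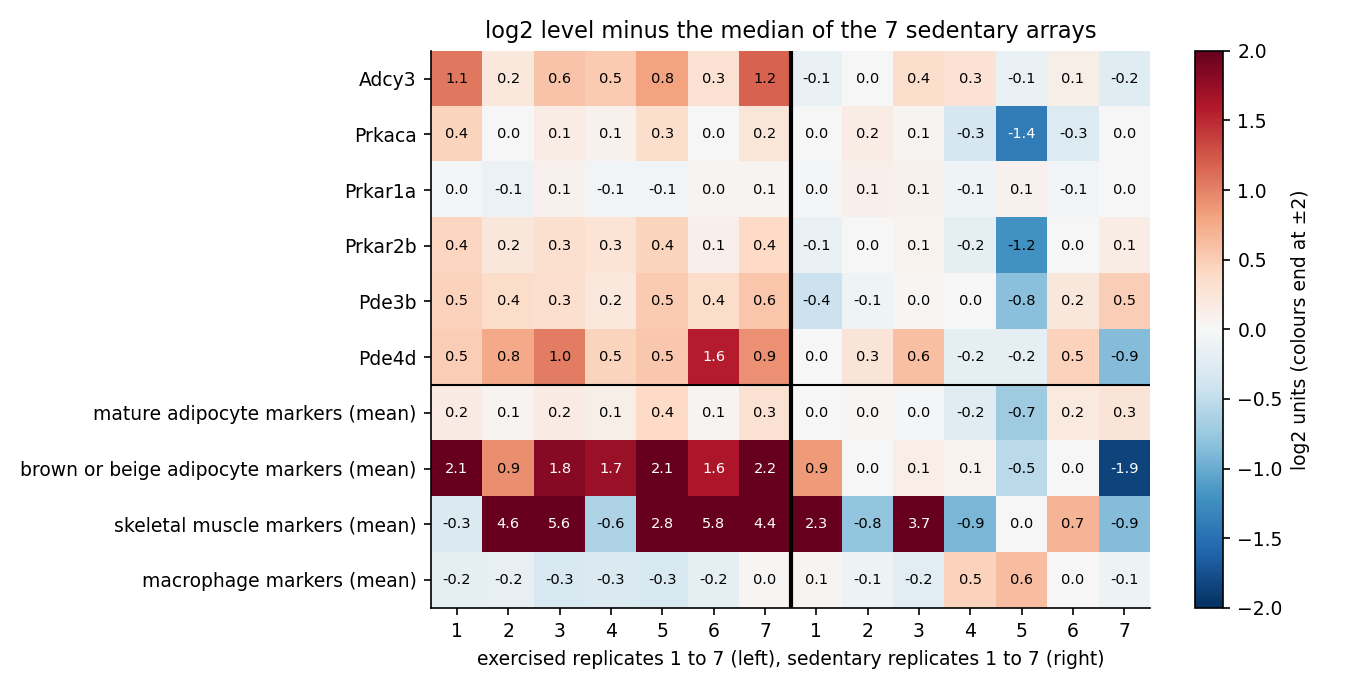
Log2 level of the 6 genes (upper rows) and mean log2 level of markers of 4 cell types (lower rows) on each array, minus the median of the 7 sedentary arrays, with exercised replicates 1 to 7 left of the black line and sedentary replicates 1 to 7 right of it; red is higher and blue is lower, and the colours end at 2 log2 units. Sedentary replicate 5 stands low for Prkaca, Prkar2b, Pde3b and mature adipocyte markers, Adcy3 is highest on exercised replicates 7 and 1, and the row of Prkar1a is nearly without colour.

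After each group's mean was subtracted, the genes whose log2 levels followed Adcy3 most closely over the 14 arrays were Adtrp (Pearson r = 0.89), Fam210a (0.87) and Mbtps1 (0.84). Adtrp and Fam210a rose (1.48, SE 0.20, adjusted p = 0.00158, and 0.51, SE 0.11, adjusted p = 0.0136), and Mbtps1 differed by -0.08 (SE 0.07). For Pde4d they were Eya4 (0.89), Ksr1 (0.88) and Man1a2 (0.83), which differed by 0.41 (SE 0.27), 0.04 (SE 0.15) and -0.30 (SE 0.18) and did not pass. These correlations are the highest among all genes tested and describe these arrays only.

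The windows upstream of transcription start sites were searched for the cAMP response element, to which CREB binds. The element TGACGTCA and its half-site TGACG were looked for on both strands, and a full element holds the half-site on each strand. RefSeq (GRCm38.p6) gave 13 windows of 250 bases for 5 of the 6 genes, and Pde3b is not among them. The full element was in 1 of the 13 and the half-site in 4, where 1.55% and 17.8% of all 32851 windows of this length held them. The windows are not separate, since 3 of the 4 with a half-site are among the 6 of Prkar1a, and 2 of those 3 overlap and hold the same site. The following stretches are the 125 bases before 1 start site each, for the 2 genes that rose and for Prkaca and Prkar1a, whose windows hold matches, with half-sites of either strand in capitals. They lie on the plus strand at chr12:4133272-4133396 (Adcy3), chr13:108654052-108654176 (Pde4d), chr8:83972853-83972977 (Prkaca) and chr11:109650824-109650948 (Prkar1a).
Adcy3: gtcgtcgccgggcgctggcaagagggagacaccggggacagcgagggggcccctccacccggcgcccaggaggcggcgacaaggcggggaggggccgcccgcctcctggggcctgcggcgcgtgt
Pde4d: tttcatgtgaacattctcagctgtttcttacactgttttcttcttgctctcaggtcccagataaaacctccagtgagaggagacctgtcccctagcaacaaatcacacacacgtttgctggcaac
Prkaca: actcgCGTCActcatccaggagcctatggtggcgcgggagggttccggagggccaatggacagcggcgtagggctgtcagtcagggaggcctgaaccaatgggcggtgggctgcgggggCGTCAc
Prkar1a: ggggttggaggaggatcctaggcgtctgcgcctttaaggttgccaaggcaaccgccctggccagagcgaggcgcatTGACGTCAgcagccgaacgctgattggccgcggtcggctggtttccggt
The full element of Prkar1a starts at position -49 from the start site, and the half-sites of Prkaca start at -120 and -6. Of the 5 genes with windows, the one with a full element was thus Prkar1a, and the windows of Adcy3 and Pde4d hold neither form. The groups overlapped for Prkar1a, as they did for all 6 genes. A match is a description of the letters, and a window without one says nothing about CREB.

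Among 101 other genes of the pathway tested, of 124 listed, 10 rose and 1 fell by limma and the rest did not pass, with a median difference of 0.01 beside -0.03 over all genes tested. That is 10.9% called, beside 5.53% of all genes in either direction. The share includes 4 genes induced by cAMP whose rise was known when their list was made. Without that list 6 of 92 rose and 1 fell, or 7.61% called. They are given here from the receptors to the target genes. Of 6 other adrenergic receptors listed, 2 had a probe set in the annotation table (Adra1b and Adra2c), and neither passed the filter on low signal.

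Among 11 further receptors of adipocytes that act on cAMP, 2 rose, 0 fell and 9 did not pass (median difference 0.00), and before adjustment 2 were higher and 1 was lower at p under 0.05. The largest difference in size was that of Tshr, the receptor for thyrotropin, named here after its values were seen. It had 1827 ± 557 units in exercised and 3160 ± 1008 in sedentary tissue and differed by -0.76 (SE 0.22, adjusted p = 0.055), with 0 of the 7 exercised arrays above the sedentary median. Hcar2, the receptor for beta-hydroxybutyrate and nicotinic acid, had 3980 ± 810 units in exercised and 2452 ± 629 in sedentary tissue (SD, n = 7 each), with no overlap between the groups, and rose by 0.71 (SE 0.17, adjusted p = 0.0236). The call was lost without exercised replicate 1 or 7 (0.63 and 0.65, adjusted p = 0.0518 and 0.0556). Hcar1, the lactate receptor, had 4101 ± 414 units in exercised and 2619 ± 992 in sedentary tissue and rose by 0.72 (SE 0.20, adjusted p = 0.0494). Its call lay at the threshold and held in 7 of 29 alternative settings, with adjusted p-values of 0.0247 to 0.167, and it passed in 3 of the 14 fits that left out an array, those without sedentary replicate 2, 4 or 6.

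Of 15 G protein subunits 0 rose and 0 fell by limma, with 1 lower at an unadjusted p under 0.05 and a median of -0.07. Gnai3, an inhibitory alpha subunit, differed by -0.19 (SE 0.09, adjusted p = 0.216) while its second probe set gave 0.01, and the beta subunit Gnb4 differed by -0.30 (SE 0.14, adjusted p = 0.235). Of 7 genes of receptor desensitisation 0 passed by limma, with 1 lower at an unadjusted p under 0.05, and 6 of the 7 differences were negative (median -0.15). The smallest p-values were those of the arrestins, which uncouple phosphorylated receptors from G proteins. Arrb1 differed by -0.24 (SE 0.07, adjusted p = 0.0705) and lay below the sedentary median on all 7 exercised arrays, and Arrb2 differed by -0.28 (SE 0.15, adjusted p = 0.291). Of 5 genes of catecholamine breakdown and uptake 0 passed by limma, also at an unadjusted p under 0.05. Slc6a2, the noradrenaline transporter, differed by -0.17 (SE 0.09), with other probe sets at 0.11, -0.05 and 0.25, and Maob, a monoamine oxidase, by 0.28 (SE 0.20).

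Of 7 other adenylyl cyclases 0 passed by limma, and 1 was higher at an unadjusted p under 0.05. This was Adcy9, with 2124 ± 327 units in exercised and 1526 ± 340 in sedentary tissue (0.48, SE 0.15, adjusted p = 0.0769), which passed without sedentary replicate 7 (0.54, adjusted p = 0.0466). Its other 3 probe sets differed by 0.21 to 0.42. Adcy6 differed by 0.21 (SE 0.15, adjusted p = 0.41), and by -0.06 with the adipocyte markers as a covariate.

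Of 16 other PKA subunits, inhibitors and anchoring proteins 2 rose and 0 fell (median -0.01), and before adjustment 4 were higher and 1 was lower at p under 0.05. The largest difference in size was that of Ezr, which encodes ezrin, a linker of membrane and actin, and which was named after its values were seen (-0.89, SE 0.36, adjusted p = 0.166, 0 of the 7 exercised arrays above the sedentary median). Akap1, an anchor on the outer mitochondrial membrane, had 5680 ± 701 units in exercised and 3947 ± 484 in sedentary tissue (SD, n = 7 each), with no overlap between the groups, and rose by 0.52 (SE 0.10, adjusted p = 0.00651). It passed in all 29 alternative settings, and its other probe set differed by 0.37 (SE 0.11, adjusted p = 0.0569). Opa1, a fusion protein of the inner mitochondrial membrane that also anchors PKA to lipid droplets, rose by 0.26 (SE 0.07, adjusted p = 0.0442). It passed in 2 of the 14 fits that left out an array, those without exercised replicate 2 or sedentary replicate 2 (adjusted p = 0.014 to 0.0943 over the 14), and its other probe sets differed by 0.67 (SE 0.12, adjusted p = 0.0066) and 0.11 (SE 0.10, adjusted p = 0.553).

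Among 13 other phosphodiesterases that break down cAMP 2 rose and 0 fell (median 0.11). Pde7b had 3280 ± 355 units in exercised and 2194 ± 443 in sedentary tissue (SD, n = 7 each), with no overlap between the groups, and rose by 0.59 (SE 0.13, adjusted p = 0.0145). Its other probe sets differed by 0.17 (SE 0.13) and 0.22 (SE 0.14). Pde8a, which binds cAMP with high affinity, had 4007 ± 708 units in exercised and 2757 ± 511 in sedentary tissue and rose by 0.53 (SE 0.13, adjusted p = 0.0281). Its call was lost without exercised replicate 1, 5 or 7 or sedentary replicate 3 (0.47 to 0.52, adjusted p = 0.057 to 0.063), and its other probe set differed by 0.30 (SE 0.19). With the muscle markers as a covariate neither Pde7b nor Pde8a passed (0.59 and 0.58, adjusted p = 0.0756 and 0.0844).

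**Figure D4:**
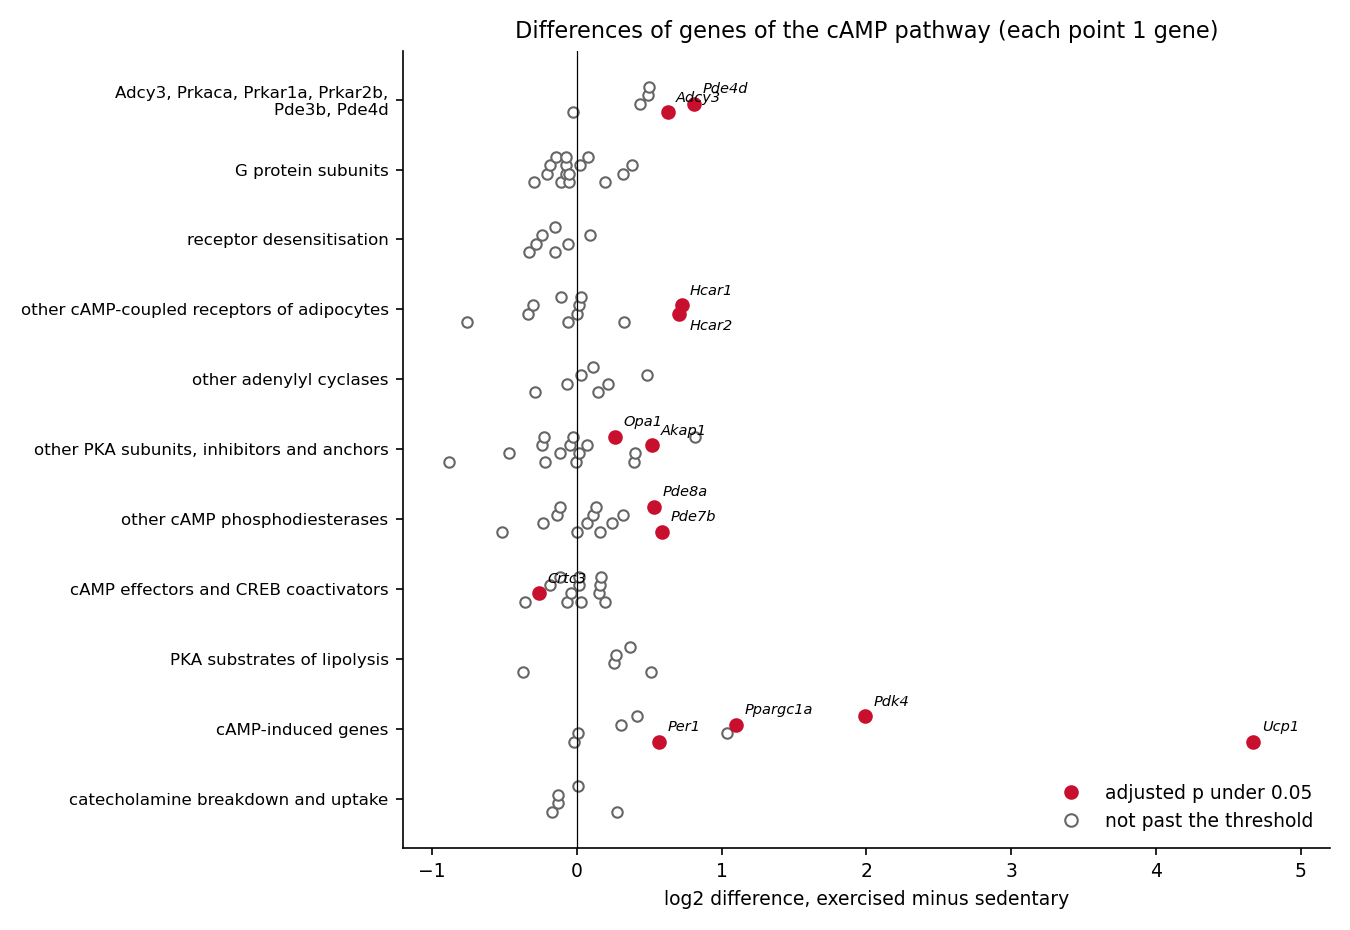
Log2 difference, exercised minus sedentary (horizontal axis), of each gene tested in the cAMP pathway, by list (rows; each point is 1 gene, spread vertically for legibility); filled red points with names passed an adjusted p under 0.05 and open points did not. Adcy3 and Pde4d are the named points of the top row, Crtc3 is the single named point left of 0, and the largest difference is that of Ucp1 at 4.67.

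Downstream of cAMP, of 13 effectors and coactivators 1 fell and 0 rose (median 0.02). The one that fell was Crtc3, a coactivator of CREB, with 2438 ± 208 units in exercised and 2930 ± 182 in sedentary tissue (SD, n = 7 each; -0.26, SE 0.07, adjusted p = 0.0401). It passed in 2 of the 14 fits that left out an array, those without exercised replicate 3 or sedentary replicate 6 (adjusted p = 0.0358 to 0.086 over the 14). The other probe set of Crtc3 fell too (-0.64, SE 0.18, adjusted p = 0.0499). Of 5 genes of lipolysis whose products PKA or its substrates regulate, 0 passed by limma and 3 were higher at an unadjusted p under 0.05 (median 0.27). Lipe, the hormone-sensitive lipase that PKA phosphorylates, had 28182 ± 5840 units in exercised and 20177 ± 5610 in sedentary tissue (0.52, SE 0.20, adjusted p = 0.14). Pnpla2, the lipase that takes the first fatty acid from triglyceride, differed by 0.26 (SE 0.09, adjusted p = 0.119). A different probe set for Pnpla2 rose (0.55, SE 0.13, adjusted p = 0.0263).

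Of 9 genes known to be induced by cAMP 4 rose and 0 fell (median 0.57). All 4 are genes that several other signals also regulate, and their rise was known when the list was made. They were Pdk4, an inhibitor of pyruvate dehydrogenase (1.99, SE 0.28), the uncoupling protein Ucp1 (4.67, SE 0.69), the clock gene Per1 (0.57, SE 0.11) and Ppargc1a, a coactivator of mitochondrial genes (1.10, SE 0.28). Their adjusted p-values were 0.00171, 0.00229, 0.00736 and 0.0307. Of the 5 that did not pass, Fos and Nr4a1 were higher at an unadjusted p under 0.05 (1.04 and 0.42). Nr4a2, Dio2 and Angptl4 differed by 0.31, 0.01 and -0.02. The call of Ppargc1a was lost without exercised replicate 1, 3, 4, 5 or 7 or sedentary replicate 4 (0.99 to 1.10, adjusted p = 0.0536 to 0.0664). Its other 4 probe sets, with differences of 0.74 to 1.51, all passed when probe sets were tested singly (adjusted p = 0.00487 to 0.024).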

How the data were processed

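Per the labels' protocols, RNA of subcutaneous white adipose tissue was hybridised to Affymetrix arrays. The authors deposited intensity on a linear scale. Per the submitters' processing notes the tool was MAS5, whose version is not given in the sources used here. The 2% trimmed mean was the same on every array, so differences in total RNA are scaled out, and array medians lay between 531.3 and 617.4. Precision is limited by having 7 arrays a group.

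Values were taken as log2(signal + 46.7), the 10th percentile of all values. Probe sets with a mean under 389.8, the 40th percentile, and 64 control probe sets were left out. Symbols came from the platform annotation, updated by Entrez identifier (34741 of 34945 probe sets with 1 symbol), and 1 probe set per gene was kept by highest mean. Groups, taken from the sample titles, were set against each other in R 4.3.3 with limma 3.58.1 (two-sided, eBayes with trend, Benjamini-Hochberg over 12944 genes, threshold 0.05). Code was tested on simulated data.

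Genes named by rule were the members, up to 4 called genes of each pathway list with the smallest p (or 2 where none passed), and the 3 genes most correlated with each called member. Members and lists were chosen with earlier results of these data known. In all 29 alternatives were tried. The replicate numbers are shared by the groups, and same-numbered arrays deviated together in 3 of 7 cases. That cannot settle whether they are pairs, and they were not treated as pairs in the main fit. The labels give no batch, scan date or hour of collection.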

Additional observations from a re-analysis of the deposited data

Results flagged for a closer look

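Sedentary replicate 5 lay far below the other 6 sedentary arrays for Prkar2b, with 10886 units beside 22390 to 28048, and for Prkaca, with 6505 units beside 13622 to 19196. The gap to the nearest array took 0.762 and 0.683 of the group's whole log2 range, above Dixon's 95% limit for 7 values. In all 12 groups of 7 were examined, and chance marks about 1 in 20, but both of these values come from the same array. The other 2 probe sets of Prkar2b were also lowest on this array (9557 and 3719 units). The second probe set of Prkaca was not: it had 3629.5 units there, within the sedentary range of 2424 to 5622. On this array the macrophage and lymphocyte markers had their highest mean log2 levels of the 14 (13.20 and 12.97) and the mature adipocyte markers their lowest (14.10). What part this had in the low values of Prkar2b and Prkaca was not tested.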

How the results depend on the processing

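The count of 2 members called higher was 1 without a filter and with the Gapdh 3' to 5' ratio as a covariate, and 0 with the muscle markers, the adipocyte markers or the replicate block. It stayed at 2 without sedentary arrays 5 and 7, but with Prkar2b and Pde3b in place of Adcy3 and Pde4d. It was 0 to 3 when single arrays were left out, and 0 members were called lower in any of the 29 alternatives. The cAMP pathway count of 10 higher was 5 with the muscle covariate, 3 with the replicate block and 6 without sedentary arrays 5 and 7 (5 to 10 leaving out single arrays). That of 1 lower was 0 with quantile normalization, median centring, all probe sets, the replicate block and the muscle covariate, 2 with the stricter filter and with array weights, and 5 with the adipocyte covariate (0 to 2 leaving out single arrays). Over all genes, 518 higher became 136 with the block, 183 with the muscle, 292 with the adipocyte and 303 with the Gapdh covariate (309 to 591 leaving out single arrays). The 198 lower became 86 with median centring, 398 with array weights, and 25, 39 and 92 with the block, muscle and Gapdh settings (79 to 262 leaving out single arrays). The cause of these shifts was not tested. With the replicate block, Adcy3 and Pde4d had unchanged differences (adjusted p = 0.113 and 0.0517). Same-numbered arrays had correlations of -0.43 to 0.38, which cannot settle whether the numbers mark pairs. Signs turned for Prkar1a with median centring (0.014) and the mean of all probe sets (0.035), and for Adcy6 (-0.060) and Maob (-0.068) with the adipocyte covariate, all far from the threshold. Over the 29 alternatives the difference of Adcy3 ran from 0.54 to 0.83 (past the threshold in 21) and that of Pde4d from 0.46 to 0.91 (in 12), Prkar2b and Pde3b passed in 3 each and Prkaca in 0.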
